A study of Mus musculus with 50 samples.

Results

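Kit, Ehf, Foxi1, Chrm3, Stk39, Papln, Tc2n, Aldoc and BC006965 are 9 genes that were low in the same pair of mammary tumours in which Erbb2 was low. They were chosen by that measured fall, in the tumours titled mid60 and mid79, from 22180 genes measured in 50 tumours, of which 18045 passed a filter on low values; all 9 passed it. Each gene had 1 probe set of its own. Because the fall in mid60 and mid79 chose the genes, it is described here without a test, and relations were tested over the other 48 tumours.

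The 50 arrays are biopsies of mammary tumours from female backcross (F1Bx) mice, 1 array per tumour. The F1 parents were C57BL/6J x FVB/NJ, and the other parental strain was FVB/NJ MMTV-Erbb2. Every mouse carried the MMTV-Erbb2 transgene, in which a mouse mammary tumour virus promoter drives the receptor in mammary epithelium, so there was no tumour without it, and the ages of the mice were not used here. Biopsies were taken before drug treatment, for which the sample labels name docetaxel and the series title doxorubicin. The labels form 1 group, with no response and no batch, and the sources used here do not say if the probes for Erbb2 detect the transgene's RNA, that of the endogenous gene, or both.

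Values are log2 expression after RMA, so 1 unit is a 2-fold difference, and levels of different genes are not comparable. The number of arrays limits the precision. Averaged over its correlations with the other arrays, an array's r was 0.916 for mid79, 0.931 for mid60 and 0.954 for mid100, against a next lowest of 0.967 and a median of 0.978. The biopsy mid100 had the highest summed levels of 6 marker lists among the 48 tumours, those for skeletal muscle, fat, endothelium, mast cells, melanocytes and macrophages. A summed level is the log2 of the sum of a list's unlogged values, so the genes with the highest values weigh most. For skeletal muscle it was 14.33 log2 in mid100 against a median of 8.90. Relations are therefore also given over 47 tumours, without mid100. In a biopsy, fewer cells of a type and less RNA per cell cannot be told apart.

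The mammary duct is lined by luminal epithelial cells that rest on contractile basal cells. Kit is a receptor tyrosine kinase for stem cell factor, found on luminal progenitors and also on mast cells and melanocytes. Ehf is an ETS transcription factor of epithelia, and Foxi1 is a forkhead factor that drives proton-pump genes such as Atp6v1b1 in ionocytes and intercalated cells of the kidney. Chrm3 is the muscarinic acetylcholine receptor that triggers fluid secretion in glands through Gq and calcium. Stk39, also called SPAK, is the kinase that WNK kinases activate and that phosphorylates cation-chloride cotransporters such as Slc12a2. Papln codes for papilin, a secreted matrix protein related to ADAMTS proteases, Tc2n for a tandem C2 domain protein, Aldoc for an aldolase of glycolysis, and BC006965 for a long noncoding RNA next to Sox9.

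Upstream sequences are shown for genes whose levels moved together over 48 tumours: Kit with Stk39, and Foxi1 with Atp6v1b1. They are the bases before the start site from RefSeq on GRCm38.p6, 5′ to 3′ on the gene's strand. For Stk39 only the 123 bases that lie outside the annotated gene are shown. Capitals mark matches to motifs searched on both strands of windows of 250 bases: GCCNNNGGC for AP-2, GGAAGT for ETS factors, GTAAACA for forkhead factors and TTCNNNGAA for STAT factors.
Kit (chr5:75574737-75574986, plus strand): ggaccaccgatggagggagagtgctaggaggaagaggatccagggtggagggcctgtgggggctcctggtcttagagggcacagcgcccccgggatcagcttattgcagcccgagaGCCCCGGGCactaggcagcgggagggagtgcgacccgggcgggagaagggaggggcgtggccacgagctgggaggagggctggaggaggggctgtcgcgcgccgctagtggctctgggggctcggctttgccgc
Stk39 (chr2:68472109-68472231, minus strand): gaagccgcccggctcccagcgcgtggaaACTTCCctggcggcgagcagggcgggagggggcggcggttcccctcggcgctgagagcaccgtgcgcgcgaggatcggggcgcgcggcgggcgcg
Foxi1 (chr11:34208090-34208339, minus strand): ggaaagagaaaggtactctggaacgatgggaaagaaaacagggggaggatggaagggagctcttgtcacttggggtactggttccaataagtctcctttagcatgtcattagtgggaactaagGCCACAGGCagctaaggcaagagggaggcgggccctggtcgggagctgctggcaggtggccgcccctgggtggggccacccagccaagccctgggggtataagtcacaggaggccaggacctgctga
Atp6v1b1 (chr6:83742767-83743016, plus strand): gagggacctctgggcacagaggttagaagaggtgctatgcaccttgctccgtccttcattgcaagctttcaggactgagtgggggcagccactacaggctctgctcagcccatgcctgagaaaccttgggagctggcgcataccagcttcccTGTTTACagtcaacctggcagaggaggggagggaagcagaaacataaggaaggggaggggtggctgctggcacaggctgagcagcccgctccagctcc

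The capitals are an AP-2 match in Kit and in Foxi1, an ETS match in Stk39 and a forkhead match in Atp6v1b1, the last 2 on the opposite strand. Of the 9 genes, 8 were in the promoter table, with 11 windows, and Ehf was not. Counting the whole window of Stk39, an AP-2 match lay in a window of 3 of the 8 genes. That of Stk39 was in the part inside the annotated gene. Such a match was in 13.7% of 32851 windows, which is a share of windows and not of genes. The ETS letters were in a window of 1 gene (Stk39, 19.7% of windows), the forkhead letters of 1 (Aldoc, 3.17%) and the STAT letters of 1 (Aldoc, 7.02%). Both matches of Aldoc were in a window that lies wholly inside the annotated gene (chr11:78323948-78324197). The window of Aldoc outside the gene had 0 of either. A match is a string of letters and was not tested as a binding site.

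All 9 genes were lowest in mid60 and mid79, and the values of this pair lay below those of the other 48 tumours without overlap. Of the 18045 tested genes 5.1% were below all 48 in both. As the genes were picked for this, nothing is read from it. Among tested genes, ranked by the smaller of the 2 falls from the mean of 48 tumours, Chrm3 came 2nd, BC006965 3rd, Papln 9th and Tc2n 10th, while Kit, Foxi1, Aldoc and Stk39 came 17th, 18th, 43rd and 94th and Ehf 333rd.

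The receptors and the kinase differed in the depth of the fall. Kit ranged from 10.56 (mid38) through a median of 11.22 to 12.28 log2 (mid177) over 48 tumours and was at 6.96 in mid60 and 8.0 in mid79. It was thus 19.7-fold below the mean of 48 in mid60 and 9.58-fold in mid79. Chrm3 ranged from 8.65 (mid100) through 9.69 to 10.18 (mid65) and was at 4.04 and 5.26, or 48.3-fold and 20.7-fold lower. Its value in mid60 was near the filter level of 4.09, where RMA values are compressed. Stk39 had the narrowest range, from 10.48 (mid9) through 11.11 to 11.37 (mid26), and was at 9.01 and 8.21, or 4.22-fold and 7.34-fold lower.

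The transcription factors were low in different order. Foxi1 ranged from 9.66 (mid177) through 10.35 to 10.90 log2 (mid7), with 6.11 in mid60 and 7.06 in mid79, and so was 18.5-fold and 9.58-fold below the mean. Ehf ranged from 9.32 (mid54) through 10.15 to 10.52 (mid37) and was at 8.91 in mid60 and 6.61 in mid79. It was 2.27-fold lower in mid60, where the gap to the lowest of the 48 was 0.41, but 11.2-fold lower in mid79.

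Among the others, Papln had the largest spread, from 9.66 (mid100) through 10.76 to 11.37 log2 (mid7), with 6.04 in mid60 and 7.04 in mid79. Tc2n ranged from 10.72 (mid100) through 11.76 to 12.07 (mid91), with 6.63 and 8.06. Aldoc ranged from 11.11 (mid100) through 12.06 to 12.57 (mid102), with 9.22 and 8.96. The noncoding BC006965 ranged from 8.76 (mid54) through 9.75 to 10.13 (mid23), with 5.32 and 5.48, and the pair lay closest together for this gene. Kit, Foxi1, Chrm3, Papln, Tc2n and BC006965 were lowest in mid60 and Ehf, Stk39 and Aldoc in mid79. Over the 48 tumours the means were 11.26 ± 0.38 for Kit, 10.09 ± 0.26 for Ehf, 10.32 ± 0.32 for Foxi1, 9.64 ± 0.31 for Chrm3, 11.09 ± 0.18 for Stk39, 10.69 ± 0.46 for Papln, 11.66 ± 0.33 for Tc2n, 11.99 ± 0.32 for Aldoc and 9.70 ± 0.28 for BC006965 (SD, n = 48).

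**Figure D1:**
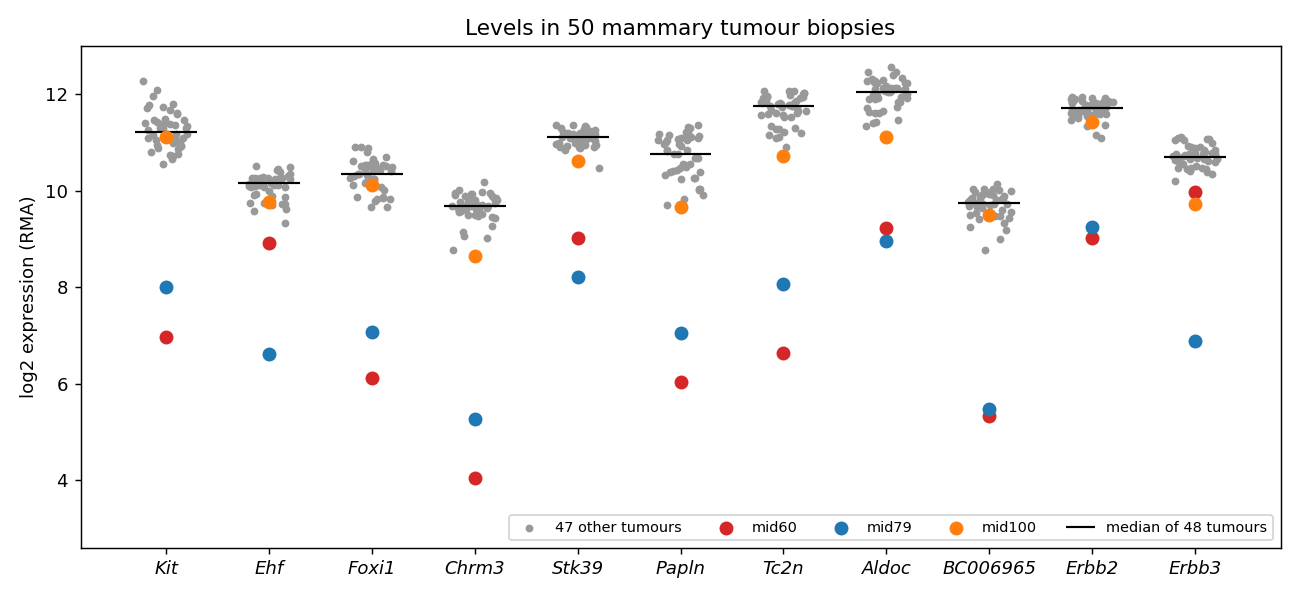
Levels of the 9 genes, Erbb2 and its partner Erbb3 in 50 tumours (log2 after RMA, vertical axis); each point is 1 tumour and the bar is the median of 48. The red and blue points, mid60 and mid79, lie below all 48 other tumours for each of the 9 genes and Erbb2. For Erbb3 mid79 at 6.88 lies below all 48. There mid60 at 9.97 lies below the grey points, the lowest at 10.19, but above mid100 (orange) at 9.72.

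The pair differed in what else was low. In mid60 the luminal list was not low as a whole. Of its 20 genes 7 were above the 48 and 1, Epcam, was below (8.91% and 11.8% of all tested genes were). Epcam was also below the 48 in mid79. In mid60 the keratin Krt8 was above its range of 9.25 to 10.49 log2 in the 48 tumours. The summed level of the 20 luminal genes was 14.29 log2 against at most 14.16. All 11 skin and squamous genes were above the 48 (8.91% of all tested genes were). In mid79 the luminal list was below the 48 in 16 of 20 genes (16.5% of all tested genes were), with Krt8 at 7.33, and all 19 proliferation genes were below, while 11 of 12 adipocyte and 11 of 14 endothelial genes were above (11% of all tested genes were). Of 7 B cell genes 6 were above the 48 in both tumours (2.06% of all tested genes were). The part of these other lists in the fall of the 9 genes was not tested.

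Some genes of the members' own pathways were below the 48 in both tumours, again with 5.1% of all tested genes as the background. Of 19 tested genes of muscarinic receptors and fluid secretion other than Chrm3, 7 were: Gnaq, Itpr2, Ano1, Aqp5, Slc12a2, Kcnn4 and Orai1. The water channel Aqp5 ranged from 11.10 to 12.75 log2 over 48 tumours and was at 7.31 in mid60 and 8.95 in mid79. The chloride channel Ano1 ranged from 10.80 to 12.19 and was at 9.39 and 8.75, and the Na-K-Cl cotransporter Slc12a2 ranged from 10.41 to 12.53 and was at 9.28 and 8.36. The proton pump subunit Atp6v1b1 was the 1 of 13 ionocyte genes below in both, at 6.55 and 6.30 against 8.72 to 10.76. Of 14 luminal progenitor genes 5 were (Itgb3, Sox10, Hey1, Cyp24a1 and Csn3), of 12 genes related to Tc2n 3 (Sytl3, Rab27a and Rph3al), of 13 glycolysis genes 2 (Hk1 and Pfkm), of 13 genes of the WNK and SPAK pathway 1 (Slc12a2), of 14 epithelial ETS factors and partners 1 (Tfap2c), and of 20 KIT signalling genes and 15 papilin-related genes 0. Other genes of these lists were above the 48. In mid60 these were 5 luminal progenitor genes, 4 secretion genes and 4 epithelial ETS factors and partners (8.91% of all tested genes were). There were also 2 KIT signalling genes, 2 ionocyte genes and 1 each of the WNK and SPAK, papilin-related, Tc2n-related and glycolysis lists. In mid79 the counts, in the order named for mid60, were 1, 1, 0, 4, 1, 3, 3, 2 and 0 (11% of all tested genes were). Above the 48 in both were Cbl (KIT signalling), Stap1 (ionocyte) and Slc12a4 (WNK and SPAK), where 2.06% of all tested genes were.

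Over all 50 tumours each gene followed Erbb2, with r from 0.766 (Ehf) to 0.910 (BC006965), a description only, since the same pair of tumours chose the genes. Rank correlations over the same tumours were lower, with rho from 0.119 (Kit) to 0.483 (Aldoc). Erbb2 itself ranged from 11.10 (mid186) to 11.94 log2 (mid101) over the 48 and was at 9.02 in mid60 and 9.25 in mid79, with no tumour between.

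Without mid60 and mid79, limma called 0 of the 9 genes with Erbb2 after Benjamini-Hochberg adjustment over all genes, where 0.454% of 18044 genes were called; 3 of the 9 had an unadjusted p under 0.05. Papln had r = 0.472 (permutation p = 0.00067), rho = 0.388 (p = 0.00677) and a slope of 1.12 ± 0.30 log2 per log2 of Erbb2 (SE, limma adjusted p = 0.0609, n = 48), with r = 0.462 without mid186 and mid114, the tumours farthest in Erbb2. Aldoc had r = 0.428 (permutation p = 0.00265), rho = 0.416 (p = 0.00356), r = 0.515 without those tumours and a limma adjusted p of 0.0863. Stk39 had r = 0.372 (permutation p = 0.00999), rho = 0.315 (p = 0.0293), r = 0.518 without them and a limma adjusted p of 0.152. For the other 6 genes r lay between -0.0426 (Kit) and 0.221 (Ehf).

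The Papln call depended on single tumours: it passed without mid130 (limma adjusted p = 0.0315), mid114 (0.0322), mid33 (0.0352) or mid23 (0.0476), and Stk39 passed without mid114 (0.0415). In the reverse fit, with Papln as the predictor, Erbb2 was called (limma adjusted p = 0.0112, and 0.03 without mid100), where 14.8% of genes were called. That call ended by ranks (limma adjusted p = 0.0592), with cell-type covariates (0.0748) and without mid100 and mid9 (0.0735).

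**Figure D2:**
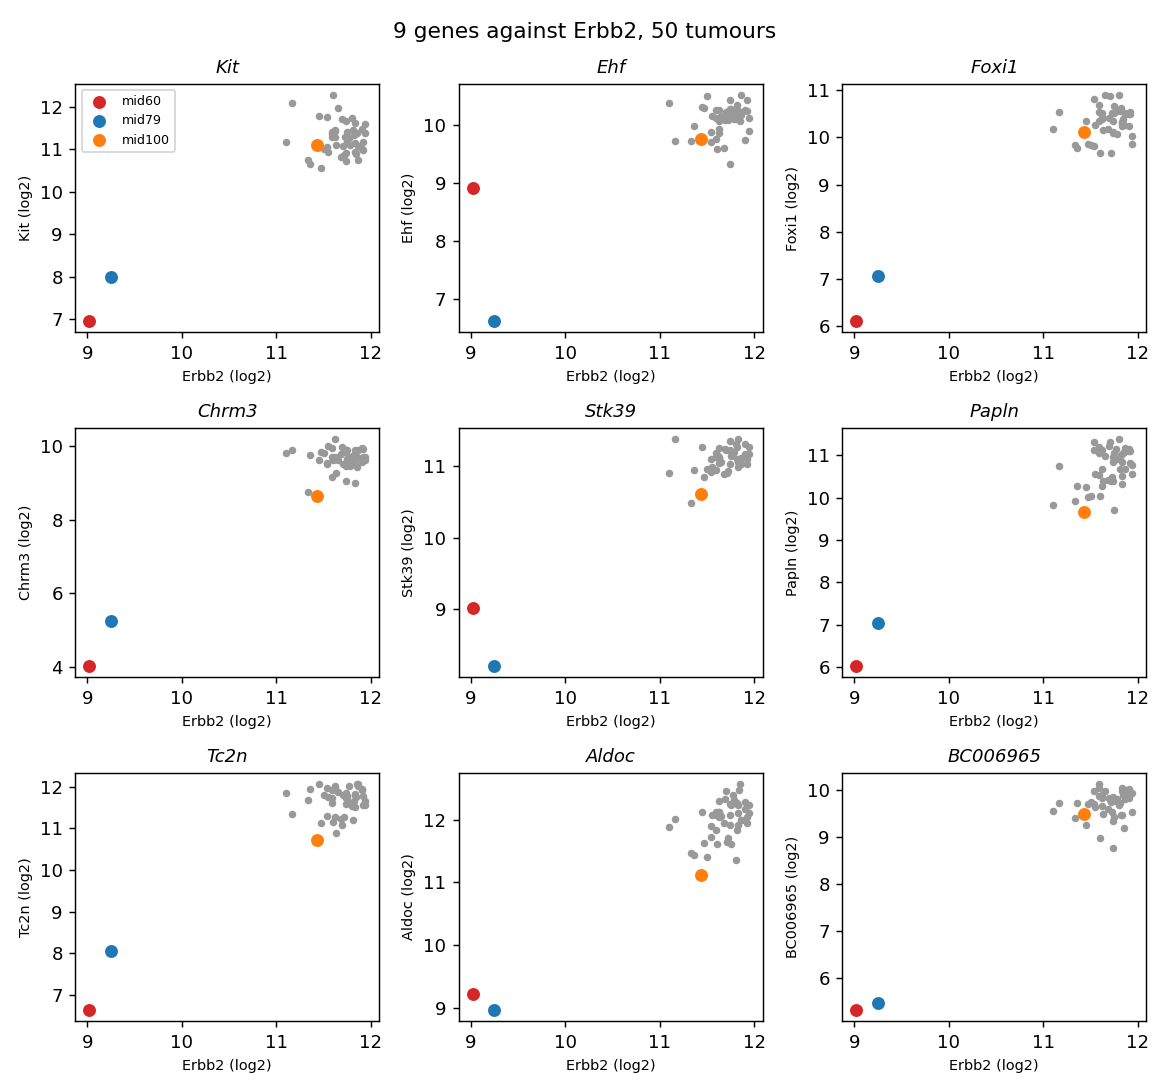
Each of the 9 genes (vertical axes, log2) against Erbb2 (horizontal axes, log2) in 50 tumours, 1 point per tumour. In every panel mid60 (red) and mid79 (blue) stand alone at Erbb2 levels of 9.02 and 9.25, and the cloud of the other tumours spans 11.10 to 11.94.

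The genes were then compared with each other. Over 50 tumours the 36 pairs had a median r of 0.875 (0.646 to 0.942), and over 48 tumours a median of 0.242 (-0.14 to 0.577), with 34 of 36 above 0. Median rho was 0.296 over 50 and 0.204 over 48, and median r was 0.194 over 47. By limma 10 pairs were called with 1 of the genes as predictor and 6 with either as predictor, where the share of all genes called with a member ran from 0.26% (Tc2n) to 14.8% (Papln), with 3.93% for BC006965. Without mid100 5 and 3 pairs were called, and without mid9 5 were called with 1 of the genes as predictor.

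Kit and Stk39, the receptor and the SPAK kinase, formed the tightest pair, with r = 0.577 (permutation p = 2e-05), rho = 0.643 (p = 1e-05, the smallest the permutations can give) and r = 0.575 without mid177 and mid114 (n = 48; limma adjusted p = 0.00438 and 0.000842 in the 2 directions). Over 47 tumours r was 0.605. Papln was called with 4 others. With Aldoc r was 0.568 (permutation p = 6e-05), rho 0.486 (p = 0.00054) and r 0.471 without mid100 and mid130. The limma adjusted p was 0.00114 with Papln as predictor and 0.0188 with Aldoc, and 0.00895 and 0.0944 over 47 tumours. With Foxi1 r was 0.506 (permutation p = 0.00018), rho 0.472 (p = 0.0009) and r 0.469 without mid177 and mid29 (limma adjusted p = 0.0121 with Papln as outcome, 0.0131 over 47 tumours).

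Papln with Stk39 gave r = 0.505 (permutation p = 0.00014), rho = 0.409 (p = 0.00427) and r = 0.353 without mid9 and mid100 (limma adjusted p = 0.00507, 0.0412 over 47 tumours). Foxi1 with Stk39 gave r = 0.433 (permutation p = 0.00184), rho = 0.390 (p = 0.00614) and r = 0.452 without mid177 and mid29 (limma adjusted p = 0.0224 with Stk39 as predictor and 0.0488 with Foxi1, and 0.0417 and 0.0542 over 47 tumours). The first of these ended without mid9 (limma adjusted p = 0.0839), and the second held in 15 of 48 fits that each left out 1 tumour. Over 47 tumours these 5 pairs were called in at least 1 direction. With cell-type covariates Kit with Stk39 had a limma adjusted p of 0.0544 with Kit as predictor. Papln on Stk39 had 0.154 with these covariates, 0.069 by ranks and 0.208 without mid100 and mid9.

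The other 5 called pairs were Stk39 with Aldoc (r = 0.488), Ehf with Chrm3 (0.472), Papln with BC006965 (0.413), Chrm3 with Stk39 (0.409) and Chrm3 with BC006965 (0.401). The limma adjusted p of their best direction over 47 tumours lay between 0.0516 and 0.275. Chrm3 with Stk39 rested on mid100 and mid9, with rho = 0.0948 (permutation p = 0.518) and r = 0.00256 without them. Tc2n was called with 0 of the other 8 genes, its highest r being 0.329 with Aldoc, and it was lower where Kit was higher without passing the test (r = -0.14, permutation p = 0.342).

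**Figure D3:**
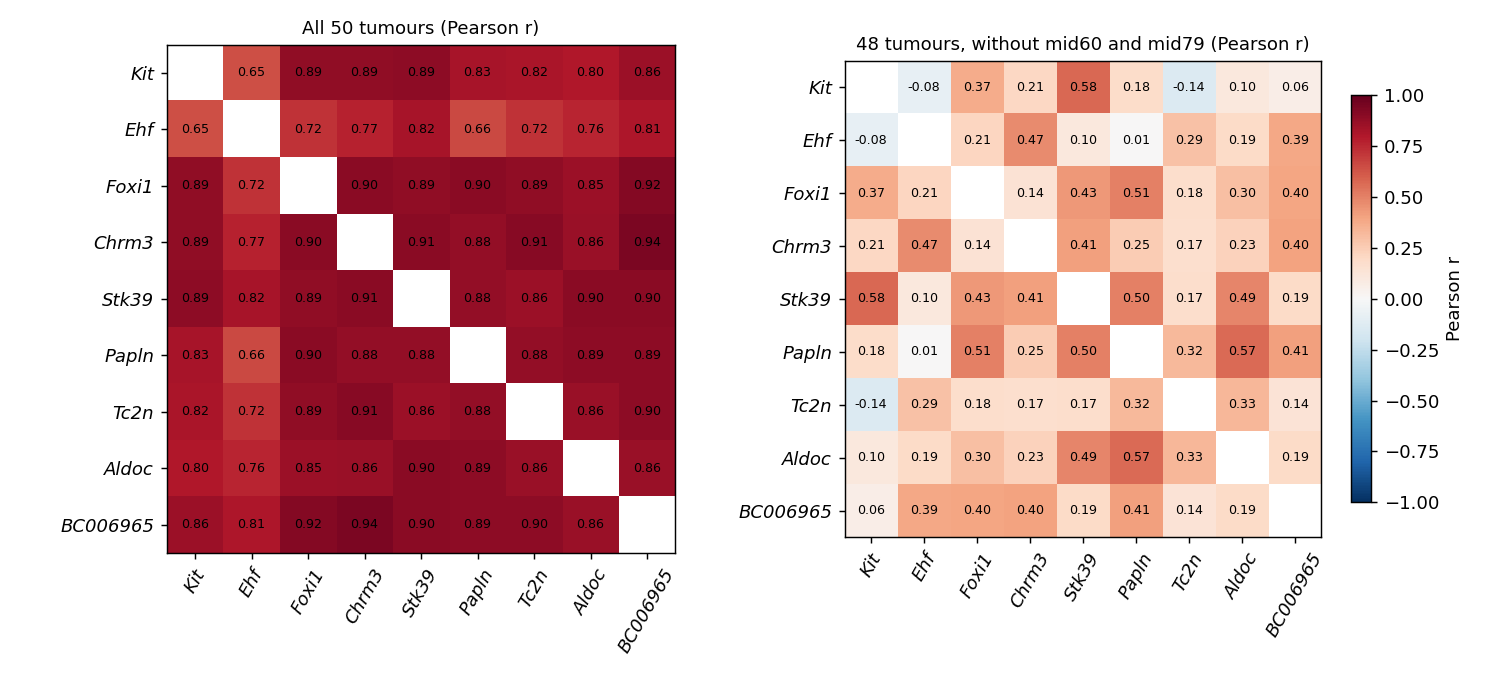
Pearson's r for each pair of the 9 genes over all 50 tumours (left) and over the 48 without mid60 and mid79 (right); colour and printed value give r. The left panel runs from 0.65 to 0.94; on the right Kit with Stk39 (0.58) and Papln with Aldoc (0.57) are highest and Kit with Tc2n (-0.14) is lowest.

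Scores of cell types and states were set against the genes over 48 tumours; a score is the mean of a list's standardised genes, and slopes are per SD of the score. With the luminal score limma called 5 of 9 genes higher (7.11% of all genes were): Stk39 (slope 0.11 ± 0.02, SE, adjusted p = 0.000146), Aldoc (0.14 ± 0.04, adjusted p = 0.013), Papln (0.19 ± 0.06, adjusted p = 0.0285), Kit (0.15 ± 0.05, adjusted p = 0.0347) and Chrm3 (0.12 ± 0.04, adjusted p = 0.04). Over 47 tumours, without mid100, Stk39 (adjusted p = 0.0133) and Kit (0.0419) were called by limma, where 1.66% of genes were. Without mid9 2 genes were called with the luminal score, and without mid26, mid43 or mid54 3. The call on Kit ended without any 1 of mid9, mid26, mid38, mid43, mid54, mid71, mid91 or mid101 (limma adjusted p up to 0.078). With the basal and myoepithelial score limma called 3 lower (5.59% of genes): Kit (-0.18 ± 0.05, adjusted p = 0.006), Stk39 (-0.08 ± 0.02, adjusted p = 0.0211) and Chrm3 (-0.12 ± 0.04, adjusted p = 0.0453). Kit alone was called over 47 tumours (limma adjusted p = 0.00667; 3.53% of genes). The count was 1 without mid9 and 6 without mid177.

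Markers of tissue around the epithelium ran against several of the genes. With the endothelial score limma called 6 lower (9.56% of genes), namely Chrm3 (adjusted p = 0.000619), Tc2n (0.0108), Papln (0.0111), BC006965 (0.0186), Ehf (0.0287) and Stk39 (0.0407). BC006965 alone was called over 47 tumours (limma adjusted p = 0.012; 2.48% of genes). With the fibroblast and matrix score 4 were lower by limma (7.07% of genes), Stk39 (adjusted p = 0.00582), Chrm3 (0.00611), Papln (0.0413) and BC006965 (0.046), and over 47 tumours 0 (2.83% of genes). That count was 0 without mid9 and 2 without mid43, mid71, mid115, mid117 or mid120. With the mast cell score 4 were lower by limma (5.28% of genes), Chrm3 (adjusted p = 0.000622), Stk39 (0.00175), Aldoc (0.0193) and Tc2n (0.0378), and over 47 tumours 0 (0.333% of genes). With fibroblast, endothelial, adipocyte and skeletal muscle scores as covariates, each left out where it was the score tested, 0 genes were called lower with the endothelial, fibroblast or mast cell score and 0 higher with the luminal score.

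Kit, which mast cells also carry, did not follow the mast cell score (r = -0.155, limma adjusted p = 0.508, n = 48). It was lower where the luminal progenitor score was higher, with r = -0.48 and a limma adjusted p of 0.0551 over 48 tumours and 0.0399 over 47 (0.366% and 0.782% of genes called lower). Ehf was higher with the milk protein and milk fat score, with r = 0.427 and a limma adjusted p of 0.0566 over 48 tumours and 0.0497 over 47 (1.5% and 1.65% of genes called higher). Foxi1 rose with the proliferation score (slope 0.16 ± 0.04, SE, limma adjusted p = 0.00904, n = 48, and 0.0109 over 47), where 4.82% and 4.68% of genes were called higher. With the hypoxia and hormone-sensing luminal scores 0 of the 9 were called by limma (0.693% and 0.931% of genes).

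**Figure D4:**
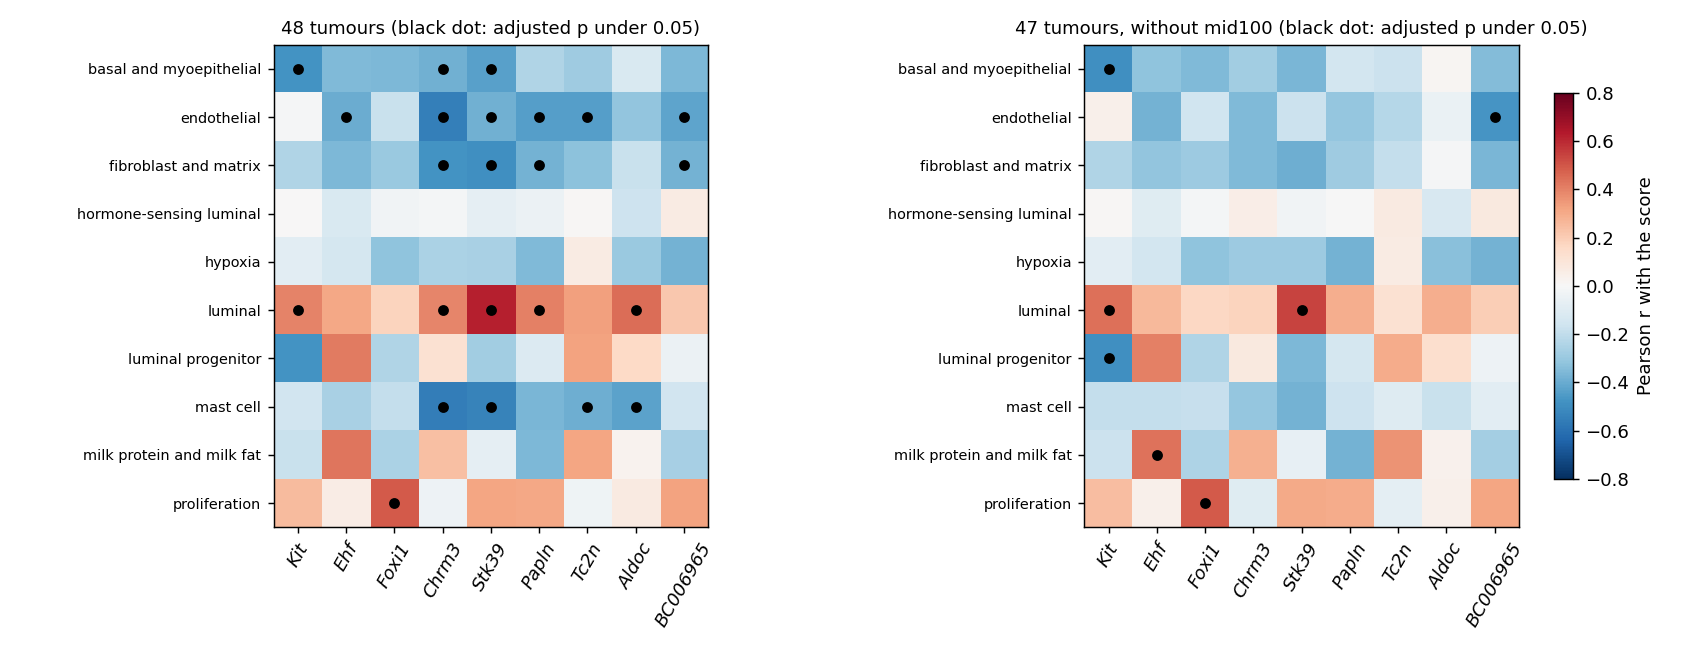
Pearson's r (colour) of each of the 9 genes with 10 cell-type and state scores over 48 tumours (left) and over 47 without mid100 (right); a black dot marks a limma adjusted p under 0.05. There are 23 dots on the left and 7 on the right. Kit and Stk39 with the luminal score and Foxi1 with the proliferation score have dots in both panels. Kit with the luminal progenitor score and Ehf with the milk protein and milk fat score have dots on the right only.

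The genes of each member's pathway were tested with that member as predictor, and limma called 14 list genes in all, 5 without mid100. Foxi1 had the closest relation, with the proton pump subunit Atp6v1b1, which ranged from 8.72 (mid36) through 9.97 to 10.76 log2. High Foxi1 went with high Atp6v1b1, with r = 0.71 and rho = 0.749 (each permutation p = 1e-05, the smallest the permutations can give) and r = 0.698 without mid177 and mid29. The slope was 1.15 ± 0.16 (SE, limma adjusted p = 3.05e-05, n = 48), and the call held without each of the 48 tumours in turn. Atp6v1b1 was 1 of 13 tested ionocyte genes called with Foxi1, where 4.63% of all genes were, and was also called with Papln (limma adjusted p = 0.00107), BC006965 (0.0166) and Stk39 (0.0309), the last ending without mid7 or mid9. Of proliferation genes 12 of 19 rose with Foxi1, where 2.64% of all genes did. The monocyte and luminal progenitor marker Cd14 was lower with Foxi1 (limma adjusted p = 0.000123). So were 4 of 12 macrophage genes (1.99% of all genes were). Of these 12, 11 were lower with Stk39 (5.96% of all genes), 10 with Papln (5.75%), 4 with Chrm3 (5.48%) and 1 with Kit (1.02%). Without mid100 there were 5 with Foxi1 (2.06%), 5 with Stk39 (2.5%), 9 with Papln (3.04%), 0 with Chrm3 (0.693%) and 1 with Kit (1.2%). The part of macrophages in these relations was not tested.

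Stk39 and Kit shared a relation with Slc12a2, the cotransporter that Stk39 phosphorylates. With Kit r was 0.535 (permutation p = 0.00011), rho 0.516 (p = 0.00032) and r 0.453 without mid177 and mid114 (slope 0.68 ± 0.15, SE, limma adjusted p = 0.0075, n = 48). That call ended without those tumours (limma adjusted p = 0.0692) and with cell-type covariates (0.101). With Stk39 r was 0.428 (permutation p = 0.00259), rho 0.417 (p = 0.0035) and r 0.334 without mid9 and mid100 (slope 1.17 ± 0.35, limma adjusted p = 0.0228). Of the 13 genes of the WNK and SPAK pathway 2 were called with Stk39, Slc12a2 higher and the K-Cl cotransporter Slc12a4 lower (limma adjusted p = 0.0115), where 12% of genes were called. Over 47 tumours Slc12a2 alone was. The call on Slc12a2 with Stk39 ended without mid9 (limma adjusted p = 0.15) and without mid100 and mid9 (0.242). It also ended by ranks (limma adjusted p = 0.069) and with cell-type covariates (0.557). Of 20 KIT signalling genes Plcg1, phospholipase C gamma, was called with Kit (slope 0.39 ± 0.11, SE, limma adjusted p = 0.0266), where 3.88% of genes were; the call ended without mid114, mid131, mid177 or mid54.

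Chrm3 was called with 5 of 19 secretion genes, where 8.97% of genes were. Higher with Chrm3 were the IP3 receptor Itpr3 (limma adjusted p = 0.00238), the potassium channel Kcnn4 (0.00596) and the chloride channel Ano1 (0.0076), and lower were Kcnma1 (0.0138), another potassium channel, and Plcb1 (0.0344), a phospholipase C. Without mid100 Kcnn4 alone was called. Its call ended without mid9 (limma adjusted p = 0.0521), without both mid100 and mid9 (0.24), by ranks (0.253), with cell-type covariates (0.381) and with array weights (0.0508). Ehf was called with 1 of 14 epithelial ETS factors and partners, the splicing regulator Esrp2, where 0.732% of genes were. For Esrp2 r was 0.561 (permutation p = 3e-05), rho 0.51 (p = 0.00024) and r 0.567 without mid54 and mid177 (slope 0.57 ± 0.12, SE, limma adjusted p = 0.0136, n = 48). The call ended by ranks (limma adjusted p = 0.0665) and with cell-type covariates (0.135).

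Papln was called with 4 of 15 related genes, each lower (Adamtsl4, Adamtsl5, Adamts4 and Adamts9; limma adjusted p 0.0128 to 0.0476), where 14.8% of genes were, and with 0 over 47 tumours. Aldoc was called with 0 of 13 glycolysis genes and Tc2n with 0 of 12 related genes by limma, where 0.787% and 0.26% of genes were. Nearest to the threshold were the pyruvate kinase gene Pkm with Aldoc (r = 0.371, limma adjusted p = 0.151) and the vesicle GTPase gene Rab27b with Tc2n (r = 0.376, 0.157).

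The 5 genes most like each member by r over 48 tumours were listed. For Kit they were Slc25a34 (r = 0.714), Tmem82 (0.703), Smim20 (0.701), Zfp12 (0.696) and Gtf2h3 (0.696), the last 3 on chromosome 5 with Kit. For Foxi1 they were Zfp385b (0.73), Atp6v1b1 (0.71), Farsb (0.694), Pwwp3a (0.652) and Ccdc13 (0.637). For Ehf they were Irgq (0.669), Nxf7 (0.66), Atp13a4 (0.63), Wfdc18 (0.622) and Xdh (0.612), the xanthine oxidoreductase of milk fat secretion. Each had a limma adjusted p of at most 0.00313.

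For Chrm3 the nearest were Epm2aip1 (r = 0.741), Tspan8 (0.718), Elmo1 (0.698), Rassf3 (0.669) and Igfals (0.667). For Stk39 they were Clstn1 (0.701), Alg9 (0.693), Pygb (0.686), Slc37a1 (0.685) and Bckdhb (0.677). For Papln they were Slc22a17 (0.799), Pigh (0.722), Baiap2 (0.712), Nudt1 (0.712) and Shroom2 (0.702). For Tc2n they were Fah (0.654), Slc6a14 (0.597), Tbc1d8b (0.581), Fam174b (0.576) and Fshr (0.575), and the limma adjusted p of the last was 0.0348, the highest among all 45. For Aldoc they were Spag5 (0.693), Nrbp2 (0.643), Arhgef1 (0.641), Jup (0.62) and Fam210b (0.619), and for BC006965 Tspan12 (0.685), Cpeb2 (0.675), Ncald (0.649), Zfp354b (0.639) and 5730522E02Rik (0.635). Over 47 tumours, without mid100, limma called 1 gene in all with Tc2n (0.00554% of genes) and 4 with Aldoc (0.0222%). Most of the genes named for Tc2n and some named for Aldoc were thus no longer called.

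Since 3 of the 5 genes nearest to Kit lie on its chromosome, each member was also set against the shift of its own chromosome, a comparison added after these values were seen. The shift is the median over a chromosome's tested genes, without the 9, of the difference from each gene's median. With the shift of chromosome 5, from -0.095 (mid100) to 0.265 log2 (mid177), Kit rose with r = 0.588 (permutation p = 2e-05), rho = 0.437 (p = 0.00208) and r = 0.449 without mid177 and mid7 (limma adjusted p = 0.000484, n = 48). Of the other tested genes of chromosome 5 16.5% were called higher with Kit, against 1.98% elsewhere. With the shift of chromosome 12, from -0.12 (mid100) to 0.282 (mid125), Papln had r = 0.51 (permutation p = 0.00022), rho = 0.608 (p = 2e-05) and r = 0.485 without mid125 and mid33 (limma adjusted p = 0.00937), and 21% of genes of chromosome 12 were called higher with Papln against 8.61% elsewhere.

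Over 47 tumours both were called by limma (adjusted p = 0.000699 and 0.0259). The call on Kit ended without the farthest tumours, mid177 and mid7 (limma adjusted p = 0.0924), and that on Papln ended with cell-type covariates (0.0597) and without mid100 and mid9 (0.0534). Over all 50 tumours neither was called (0.134 and 0.0717). Chrm3 with chromosome 13 was called over 48 tumours (limma adjusted p = 0.0355) but not over 47 (0.456), and the other 6 genes were not called (0.0546 to 0.661). Over 48 tumours the share of all genes called higher was 3.48% with the shift of chromosome 5 and 2.41% with that of chromosome 12. It was 7.73% for chromosome 13, 4.18% for chromosome 2 and 8.07% for chromosome 11. Among genes of the same chromosome it was larger, with 38.3% for chromosome 5, 42.2% for chromosome 12 and 21.4% for chromosome 13. For chromosome 2 it was 36.4% and for chromosome 11 23.7%. Calls like those on Kit, Papln and Chrm3 were thus common among genes of their own chromosomes. DNA copy number was not analysed here, and its part in the shifts was not tested.

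**Figure D5:**
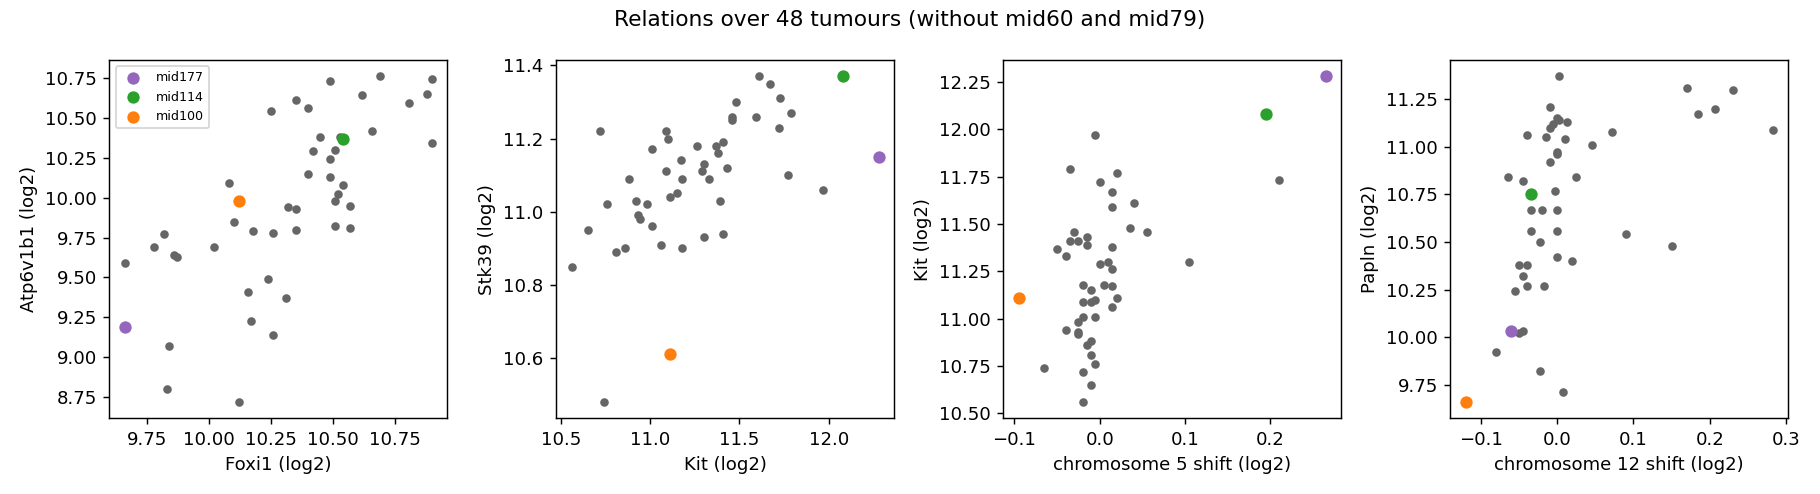
From left to right, Atp6v1b1 against Foxi1, Stk39 against Kit, Kit against the shift of chromosome 5, and Papln against the shift of chromosome 12 (log2, 1 point per tumour, 48 tumours without mid60 and mid79). The first panel rises throughout (r = 0.71); in the third, mid177 at a shift of 0.265 has the highest Kit, 12.28.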

How the data were processed

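The deposited values are log2 expression of 34472 probe sets in 50 biopsies, 1 array each, processed with RMA per the submitters' processing notes, which also name the mouse build mm8 without a role; no RMA version is given in the sources read. Per the labels, 6 ug of RNA was extracted with Trizol and labelled as biotinylated cRNA. RMA includes quantile normalization, which would hide a change shared by most genes, and low values are compressed. Probe sets were named from the platform annotation where it gives 1 gene (23521; 1814 had several genes and 9137 none), and 23328 matched a RefSeq gene table on GRCm38.p6, used for names and gene order. Per gene the probe set with the highest mean was used, and a gene was tested if its mean reached 4.09 log2, the 25th percentile.

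Regressions over 48 tumours were run in R 4.3.3 with limma 3.58.1 (eBayes with a trend after lmFit), with Benjamini-Hochberg adjustment over all genes and calls under 0.05. Correlations used 100000 two-sided permutations, with numpy 2.4.6, scipy 1.17.1, pandas 2.3.3 and Python 3.11.15. P-values measure the spread between these tumours. On simulated data for the Erbb2 regression (18045 genes, 200 planted), 31.5%, 82.5% and 96% were recovered at slopes of 0.5, 1 and 2 log2 per log2, with 5, 9 and 9 false calls.

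The 9 genes and the gene lists were chosen with earlier results of these data known, and the 48 tumours were part of those results. Named genes were the 9, Erbb2, Erbb3, the 5 with the highest r for each and up to 4 per list by the size of the moderated statistic; list genes named for their level in mid60 and mid79, the 5th gene named in the secretion list, and Sox10, Cd14 and the relations of Slc12a2 and Atp6v1b1 with other members were chosen after their values were seen. Alternatives were other probe set rules, other filters, quantile normalization again, ranks, array weights, cell-type covariates and tumours left out.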

Additional observations from a re-analysis of the deposited data

How the results depend on the processing

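The share of genes lowest in both mid60 and mid79 stayed between 4.19% and 5.49% under other probe set rules, no filter and renewed quantile normalization. Members called with Erbb2 numbered 0, except 1 with the filter at the 50th percentile (Papln) and 9 over all 50 tumours; leaving out each tumour gave 0 to 2. Genes called with Erbb2 numbered 82, against 148 with that filter, 5648 over 50 tumours, 29 without mid100, 23 without mid100 and mid9, 0 by ranks, 7 with cell-type covariates, 215 with array weights and 32 without the 2 farthest tumours, and 19 to 175 with each tumour left out in turn. Calls with scores numbered 23, against 61 over 50 tumours, 7 without mid100, 4 without mid100 and mid9, 7 by ranks, 3 with covariates, 12 with array weights and 4 without the 2 farthest; with each tumour left out they ran from 7 to 28, with 11 without mid9.

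By score, in the order over 50 tumours, without mid100, without mid100 and mid9, by ranks, with covariates, with array weights and without the 2 farthest tumours, genes lower with the endothelial score numbered 6 at first and 9, 1, 1, 3, 0, 3 and 1. Lower with the fibroblast score there were 4 at first and 9, 0, 0, 1, 0, 2 and 0, and 1 with renewed quantile normalization. Lower with the mast cell score there were 4 at first and 9, 0, 0, 0, 0, 2 and 0. Lower with the basal score there were 3 at first and 9, 1, 1, 1, 0, 1 and 2. Higher with the luminal score there were 5 at first and 4, 2, 0, 1, 0, 2 and 0. Over 50 tumours 8 were lower with the hormone-sensing score, 6 higher with the luminal progenitor score and 7 higher with the proliferation score, each 0, 0 and 1 over 48. One gene was lower with the luminal progenitor score with the filter at the 50th percentile, without mid100, without mid100 and mid9 and with array weights (1 each), and 1 was higher with the milk score with that filter, without mid100 and with covariates, where 1 was lower. With each tumour left out the counts ran from 2 to 6 for luminal, 1 to 6 for basal, 1 to 7 for endothelial, 0 to 5 for fibroblast, 0 to 5 for mast cell, and 0 to 1 for milk and luminal progenitor.

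Pairs called numbered 10, or 6 in both directions, against 36 and 36 over 50 tumours, 5 and 3 without mid100, 3 and 2 without mid100 and mid9, 5 and 2 by ranks and 4 and 1 with covariates; with each tumour left out 5 to 11 and 3 to 8. Pathway genes called numbered 14, against 67, 5, 3, 4 and 2 in the same order, 7 with array weights and 4 without the 2 farthest. Members called with their own chromosome numbered 3, against 0 over 50 tumours and 1 with covariates, without mid100 and mid9 and without the 2 farthest; with each tumour left out 2 to 4. Of 30 single relations 0 changed sign; 12 were no longer called without mid100, 18 without mid100 and mid9, 19 by ranks and 24 with covariates. Among these Foxi1 with Atp6v1b1 was called under all 12 alternatives. The cause of these changes was not tested. The mast cell score could not be fitted with the filter at the 50th percentile, which left under 3 of its genes. No paired analysis was possible because the labels form 1 group. The runs without mid100 and mid9 and the chromosome shifts were chosen after seeing the data. Array values carry no counts, so the number of tumours limits the precision.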

Other observations

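Sox10, a transcription factor of luminal progenitors and neural crest, was called higher with 7 of the 9 genes over 48 tumours, and was chosen for description after its values were seen. The share of all genes called was 14.8% with Papln, 12% with Stk39, 8.97% with Chrm3, 4.63% with Foxi1, 3.93% with BC006965, 0.787% with Aldoc and 0.732% with Ehf. No other gene of the 14 on the luminal progenitor list was called higher with any member. Called lower were Cd14 and Cxcl1 with Foxi1, Aldh1a3 and Itga2 with Chrm3, and Cd14 and Cyp24a1 with Papln. Lif was called lower with Kit and Stk39, and Rspo1 with Stk39. Sox10 ranged from 9.22 (mid100) through 10.10 to 10.53 log2 and was at 8.54 in mid60 and 6.35 in mid79, both below the other 48. With Ehf it had r = 0.577 (permutation p = 3e-05), rho = 0.505 (p = 0.00036), r = 0.513 without mid54 and mid177 and a limma adjusted p of 0.00921. With BC006965 it had r = 0.521 (permutation p = 0.00023), rho = 0.492 (p = 0.00035), r = 0.446 without mid54 and mid177 and a limma adjusted p of 0.0132. With Chrm3 it had r = 0.544 (p = 0.00014), rho = 0.349 (p = 0.0149), r = 0.286 without mid100 and mid9 and a limma adjusted p of 0.00376. Over 47 tumours, without mid100, Sox10 was called with Ehf (limma adjusted p = 0.019), Foxi1 (0.0268) and BC006965 (0.0132), and no longer with Chrm3 (0.0989), Stk39 (0.317), Papln (0.0518) or Aldoc (0.271). The call with Foxi1 ended without mid9 (0.0687). By ranks the limma adjusted p was 0.1 with Ehf, 0.078 with Foxi1 and 0.0514 with BC006965, and with cell-type covariates it was 0.181, 0.0539 and 0.181. Tc2n and Kit were not called with it (0.471 and 0.665 over 48 tumours).

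Members differed in how they related to their neighbours on the chromosome. Spag5, a spindle protein gene next to Aldoc among tested genes, was the gene most like Aldoc over 48 tumours, with r = 0.693 and rho = 0.664, and r = 0.652 over 47. BC006965 lies next to Sox9 among tested genes, but its r with Sox9 over 48 tumours was 0.102 (permutation p = 0.493), rho was 0.154 (p = 0.293) and r without mid54 and mid177 was 0.17. Over all 50 tumours r was 0.743, and Sox9 was at 7.87 in mid60 and 6.81 in mid79, below its lowest value of 9.05 in the 48. Kit lies between Pdgfra and Kdr, receptor kinase genes of fibroblasts and endothelium, and had r = -0.193 and 0.196 with them over 48 tumours. In mid79 Pdgfra was at 10.51 and Kdr at 10.02 log2, above all 48 tumours, where Kit was at 8.0. In mid60, where Kit was at 6.96, Pdgfra was at 8.33 and Kdr at 7.79, within their ranges of 5.36 to 10.08 and 6.62 to 9.51.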
